A study of Fukomys damarensis and Heterocephalus glaber and Cavia porcellus with 28 samples.

Results

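Titin, the myomesins of the M-band and 3 proteins tied to the Z-disc were followed across 4 rodent species in heart and liver. The genes were taken by symbol from a list of 9: Ttn, Myom1, Myom2, Myom3, Actn2, Nebl, Ldb3, Tcap and Csrp3. Of these, 7 have a row among the 13928 genes of each tissue's table. Their rows carry the mouse Ensembl identifiers ENSMUSG00000051747 (Ttn), ENSMUSG00000024049 (Myom1), ENSMUSG00000031461 (Myom2), ENSMUSG00000037139 (Myom3), ENSMUSG00000052374 (Actn2), ENSMUSG00000021798 (Ldb3) and ENSMUSG00000030470 (Csrp3). Nebl (nebulette, a nebulin relative of the cardiac Z-disc) and Tcap (telethonin, which caps the Z-disc end of titin) were not analysed here.

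The sarcomere is the contractile unit of striated muscle, bounded on each side by a Z-disc, where alpha-actinin crosslinks actin filaments, and held together at its centre by the M-band, where myomesins crosslink myosin filaments. Titin runs from the Z-disc to the M-band, and acts as a molecular spring and as a scaffold for both structures. In heart muscle the splice form of titin sets much of the passive stiffness of the wall. The values used here are sums per gene, so they cannot show titin's splice forms.

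Hearts came from 3 naked mole-rats (Heterocephalus glaber), 5 Damaraland mole-rats (Fukomys damarensis), 3 guinea pigs (Cavia porcellus) and 3 mice (Mus musculus), and livers from 4, 5, 3 and 2 animals in the same order. The labels name 18 animals for the 28 libraries, of which 10 gave both tissues. No treatment, genotype or strain is given. Naked mole-rats were 13 to 17 months old, Damaraland mole-rats 36 to 48, guinea pigs 2.3 and mice 2, so age and species cannot be told apart. All libraries came from males except 1 Damaraland liver library, and 1 Damaraland animal carries different ages in its heart and liver labels.

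Total RNA was sequenced after removal of ribosomal RNA. The deposited values are variance-stabilised and behave like log2 of the read number at high counts. The values return whole reads, with totals of 4089633 to 26985779 reads per heart library and 11220505 to 21467939 per liver library. The shallowest was naked mole-rat heart replicate 3. A gene with no reads has a value of 5.36 in heart and 4.29 in liver. A 2-fold change from 1000 reads moves the value by 0.95 in heart, and the same change from 10 reads moves it by 0.28, so low values understate a fold. Beside the values, mean scaled reads are given (the reads recovered for a library, put on a common depth by its size factor), and every fold below is a ratio of those means. The values carry no term for gene length, so levels are compared between species for a gene and never between genes. How reads were assigned to genes in each species is not given in the sources used here, and any difference in the length or completeness of a species' gene models is part of each species difference. That part was not tested. In whole tissue, fewer cells of a type and less RNA per cell cannot be told apart. All 10 cardiomyocyte markers had reads in the hearts of every species, and their summed scaled reads ran from 671089 to 1158986 in naked mole-rat, 1352154 to 1813227 in the Damaraland animals, 888403 to 999417 in guinea pig and 1183059 to 1310526 in mouse. A large part of that sum was Myh6, the alpha myosin heavy chain, at means of 239719, 958792, 384282 and 565633 in that order. The slow cardiac myosin heavy chain Myh7 is not among the markers, and had means of 625453, 303692, 392030 and 1181. The sum therefore depends on which myosin a species uses.

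Differences were tested with limma over all genes, 10667 in heart and 10887 in liver, with Benjamini-Hochberg adjustment. A difference is called when its adjusted p is under 0.05 and its size at least 1 on the log2-like scale. Every comparison that shares a species shares that species' libraries.

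**Figure D1:**
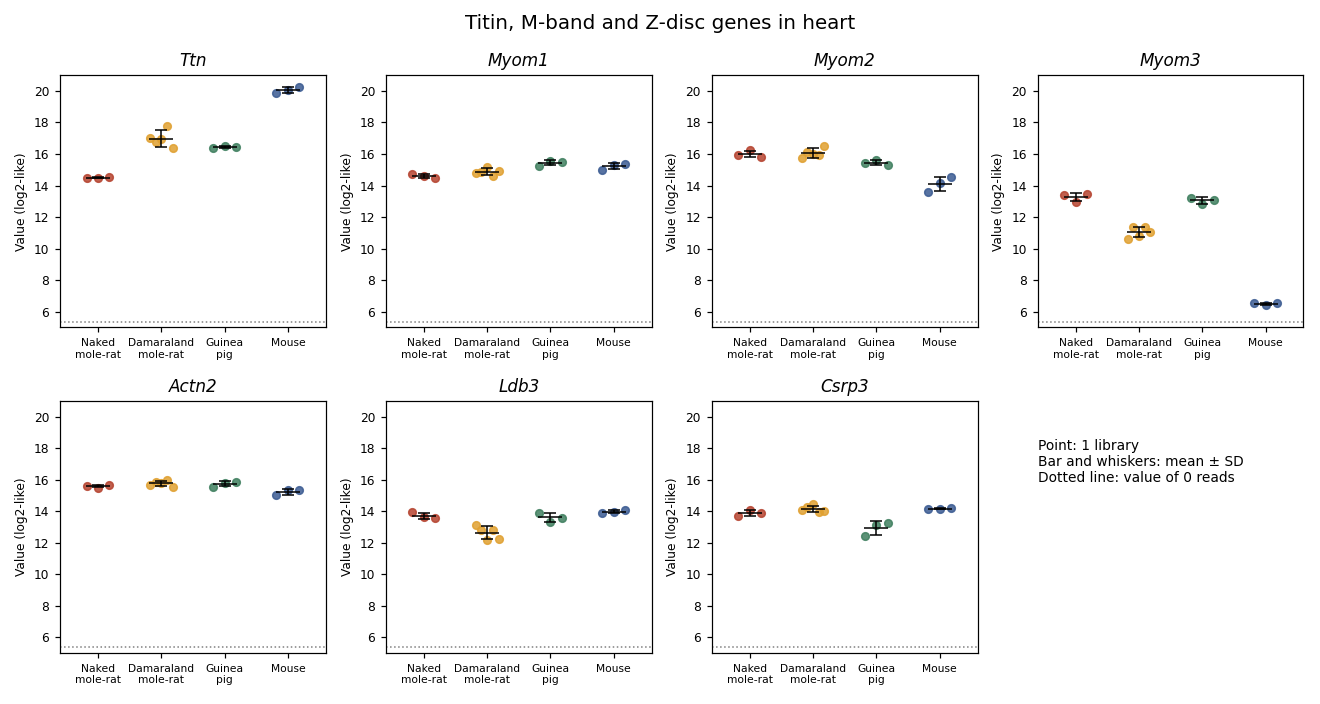
Values of the 7 genes in heart (y axis, log2-like units), by species on the x axis. Points are libraries, bars and whiskers are the mean and SD (n = 3, 5, 3 and 3), and the dotted line is the value of a gene with no reads (5.36). Ttn rises to about 20 in mouse, where Myom3 falls near the dotted line, while Myom1 and Actn2 stay between 14 and 16 in every species.

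Titin was lowest in naked mole-rat and highest in mouse in heart. Ttn had values of 14.46, 14.48 and 14.52 in the naked mole-rat hearts. The Damaraland hearts gave 16.99, 16.76, 16.93, 17.81 and 16.37, the guinea pig hearts 16.35, 16.50 and 16.44, and the mouse hearts 19.87, 20.06 and 20.27. All naked mole-rat hearts lay below every other heart and all mouse hearts above, while the Damaraland and guinea pig hearts overlapped. Mean scaled reads were 22889 in naked mole-rat, 136151 in the Damaraland animals, 88419 in guinea pig and 1104348 in mouse. Titin took 0.150% of the reads of the naked mole-rat hearts, 1.03% in the Damaraland animals (0.636 to 1.83% over 5 libraries), 0.684% in guinea pig and 5.90% in mouse. Hepatocyte markers were high in the naked mole-rat hearts: the 5 of 8 listed genes with a row summed to 10955 to 31139 scaled reads there, 3522 to 6902 in Damaraland hearts, 3844 to 5520 in guinea pig hearts and 349 to 1209 in mouse hearts. Alb, albumin, had means of 20193, 2790, 949 and 445 in that order, while Apoa1 was highest in guinea pig, at 370, 1736, 3357 and 55.2. Their part in the naked mole-rat levels of the members was not tested.

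Ttn was lower in naked mole-rat than in the Damaraland animals by a difference of -2.49 (SE 0.25, adjusted p = 3.02e-07 by limma), or 5.95-fold. Against guinea pig the difference was -1.94 (SE 0.28, adjusted p = 1.74e-05 by limma, 3.86-fold), and against mouse -5.58 (SE 0.28, adjusted p = 5.22e-11 by limma, 48.3-fold). Of all genes tested in heart, 4.14% were called lower in naked mole-rat than in each of the other 3 species, and Ttn was the 1 member among them. Mouse titin was also higher than in the Damaraland animals, by 8.11-fold (difference -3.09, SE 0.25, adjusted p = 1.72e-08 by limma), and than in guinea pig, by 12.5-fold (difference -3.63, SE 0.28, adjusted p = 1.42e-08 by limma). Ttn was likewise the 1 member called higher in mouse than in each of the others, as were 6.6% of all genes. The Damaraland and guinea pig hearts were not separated (adjusted p = 0.0724 by limma). Titin differences to mouse depend on the scaling of the highest values. With quantile normalisation the Damaraland difference was -1.55 and the guinea pig difference -2.43, both still called. Libraries were also centred on the mean log2-like value of the cardiomyocyte markers, which does not correct for their summed reads. The naked mole-rat difference was then -2.37 to Damaraland mole-rat, -1.96 to guinea pig and -5.23 to mouse.

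The M-band genes did not move together. Myom1, myomesin 1, is the general crosslinker of myosin filaments at the M-band of striated muscle. Its values were 14.72, 14.60 and 14.48 in naked mole-rat, 14.77, 14.85, 15.19, 14.62 and 14.93 in the Damaraland animals, 15.27, 15.56 and 15.50 in guinea pig, and 14.99, 15.33 and 15.34 in mouse. The mean scaled reads spanned 24756 in naked mole-rat to 44634 in guinea pig. Myom1 was called in 0 of the 6 species pairs in heart by limma. In 3 pairs both the unadjusted and the adjusted p were under 0.05 with a difference under the size threshold: -0.85 for naked mole-rat against guinea pig (SE 0.19, adjusted p = 0.00128 by limma), -0.63 for naked mole-rat against mouse (adjusted p = 0.00985) and -0.57 for Damaraland mole-rat against guinea pig (adjusted p = 0.0092). In those pairs no library of the lower species reached the higher species. With libraries centred on the cardiomyocyte markers, the naked mole-rat difference to mouse shrank to -0.28 (adjusted p = 0.212 by limma). The differences to guinea pig were then -0.86 for naked mole-rat and -0.70 for Damaraland mole-rat.

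Myom2 encodes M-protein, a myomesin relative of adult striated muscle. Its values were 15.97, 16.23 and 15.83 in naked mole-rat, 15.74, 16.13, 15.98, 15.96 and 16.54 in the Damaraland animals, 15.43, 15.61 and 15.33 in guinea pig, and 13.62, 14.17 and 14.51 in mouse. All mouse hearts lay below all others, and the 2 mole-rats overlapped. Mean scaled reads were 66265, 69846, 44990 and 18051 in that order. Myom2 was higher than in mouse by 3.67-fold in naked mole-rat (difference 1.91, SE 0.25, adjusted p = 4.29e-06 by limma), 3.87-fold in the Damaraland animals (1.97, SE 0.22, adjusted p = 7.91e-07) and 2.49-fold in guinea pig (1.35, SE 0.25, adjusted p = 0.000185). The Damaraland hearts were above the guinea pig hearts by 0.61 (SE 0.22, adjusted p = 0.0243), under the size threshold. Leaving out each library in turn raised that adjusted p by limma to as much as 0.0845. With libraries centred on the cardiomyocyte markers the difference was 0.49 (adjusted p = 0.0713 by limma).

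Myom3 encodes myomesin 3, known mainly from skeletal muscle. Its values were 13.41, 12.99 and 13.47 in naked mole-rat, 10.63, 11.39, 10.81, 11.40 and 11.05 in the Damaraland animals, 13.23, 12.83 and 13.10 in guinea pig, and 6.56, 6.41 and 6.52 in mouse. Naked mole-rat and guinea pig overlapped at the top, the Damaraland hearts lay between, and the mouse hearts stood a little above the value of no reads, with 29 to 45 reads each. Mean scaled reads were 10044, 2094, 8476 and 26.8 in that order.

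Naked mole-rat Myom3 was 4.80-fold above Damaraland mole-rat (difference 2.24, SE 0.19, adjusted p = 3.88e-08 by limma) and 374-fold above mouse (6.79, SE 0.21, adjusted p = 2.13e-13). Guinea pig Myom3 was 4.05-fold above Damaraland mole-rat (adjusted p = 1.29e-07) and 316-fold above mouse (6.56, SE 0.21, adjusted p = 2.95e-13). The Damaraland hearts were 78.0-fold above mouse (4.56, SE 0.19, adjusted p = 4.01e-12). The naked mole-rat and guinea pig hearts were not separated (adjusted p = 0.351). Myom2 and Myom3 were the 2 members called lower in mouse than in each other species, as were 3.8% of all genes.

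Skeletal muscle fibre markers followed Myom3 in some pairs of species and not in others. Guinea pig hearts had more Myom3 than Damaraland hearts (8476 and 2094 mean scaled reads) but a lower marker sum. The 11 of 12 listed markers that have a row summed to 4325 to 5642 scaled reads in the naked mole-rat hearts, 1366 to 3165 in the Damaraland animals, 978 to 1165 in guinea pig and 202 to 383 in mouse. Most of that sum was Neb, nebulin, the actin filament ruler of skeletal muscle, at means of 4252, 2027, 969 and 216. The fast skeletal myosin gene Myh1 had means of 201, 14.6, 1.64 and 7.56 scaled reads in the same order, Myh2 97.6, 4.70, 2.37 and 0.260, and Myh4 148, 42.2, 0.650 and 4.96. Neb and these 3 myosins were highest in naked mole-rat. The fast light chain Mylpf was highest in the Damaraland hearts, at 167 beside 4.64, 1.12 and 6.23 in naked mole-rat, guinea pig and mouse, and Pvalb was at 0 in the naked mole-rat hearts and Tnnt3 in the guinea pig hearts. The part of skeletal muscle in the Myom3 levels was not tested.

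Of the 3 Z-disc genes measured, Actn2 had the smallest species differences, none above 0.54. Actn2 is an alpha-actinin of heart and skeletal muscle that crosslinks actin at the Z-disc and binds the Z-disc end of titin. It had values of 15.62, 15.50 and 15.67 in naked mole-rat, 15.66, 15.85, 15.78, 16.00 and 15.52 in the Damaraland animals, 15.54, 15.80 and 15.88 in guinea pig, and 15.02, 15.33 and 15.32 in mouse. The mouse hearts were lowest and the other species overlapped. Actn2 was called in 0 of 6 pairs by limma, and 2 pairs had an unadjusted p under 0.05. Damaraland hearts were above mouse by 0.54 (SE 0.17, adjusted p = 0.0119 by limma) and guinea pig hearts by 0.52 (SE 0.19, adjusted p = 0.03), both under the size threshold. Leaving out each library in turn raised these adjusted p by limma to as much as 0.079 and 0.132. With libraries centred on the cardiomyocyte markers the differences were 0.77 and 0.88.

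Ldb3 encodes a PDZ and LIM domain protein, also called Cypher or ZASP, that binds alpha-actinin at the Z-disc. Its values were 13.93, 13.66 and 13.57 in naked mole-rat, 13.10, 12.80, 12.20, 12.82 and 12.23 in the Damaraland animals, 13.91, 13.33 and 13.58 in guinea pig, and 13.91, 13.94 and 14.06 in mouse. Every Damaraland heart lay below every other heart, and the other 3 species lay close together. Mean scaled reads were 13473, 6447, 12567 and 15986. Summed over 5 measured genes, smooth muscle markers were high in the Damaraland hearts, at 11050 to 15984 scaled reads beside 2230 to 6545 in the other species. Most of that sum was Acta2, at a mean of 7437 scaled reads, and Cnn1 and Mylk were also highest there. Myh11 and Tagln were highest in naked mole-rat, at 2693 and 1097 beside 1661 and 774 in the Damaraland hearts. Their part in the Ldb3 level was not tested.

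Naked mole-rat Ldb3 was 2.09-fold above Damaraland mole-rat (difference 1.09, SE 0.21, adjusted p = 0.000298 by limma) and mouse 2.48-fold above it (difference -1.34, SE 0.21, adjusted p = 3.25e-05). The guinea pig difference of -0.98 (adjusted p = 0.000755) fell just short of the size threshold. The naked mole-rat call rests on the threshold too: the difference was 0.98 without naked mole-rat replicate 1, 0.98 without Damaraland replicate 3 and 0.99 without Damaraland replicate 5.

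Csrp3 encodes muscle LIM protein, a small LIM domain protein of the Z-disc and the nucleus of muscle cells. It had values of 13.70, 14.10 and 13.86 in naked mole-rat, 14.09, 14.27, 14.43, 13.94 and 14.03 in the Damaraland animals, 12.42, 13.13 and 13.22 in guinea pig, and 14.11, 14.15 and 14.19 in mouse. All guinea pig hearts were below all others. Guinea pig replicate 1 was the lowest heart for this gene. Fibroblast markers were high in the same hearts, their 5 measured genes summing to 44008 to 117742 scaled reads beside 7817 to 42902 in the other species, and their part in the Csrp3 level was not tested.

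Csrp3 was 2.31-fold lower in guinea pig than in the Damaraland animals (difference 1.23, SE 0.19, adjusted p = 3.48e-05 by limma) and 2.29-fold lower than in mouse (difference -1.23, SE 0.22, adjusted p = 0.000121). Without guinea pig replicate 1 these were 0.98 and -0.98, under the size threshold. The mouse call was also lost with quantile normalisation, at -0.82, and with libraries centred on the cardiomyocyte markers, at -0.87. Naked mole-rat exceeded guinea pig by 0.96 (SE 0.22, adjusted p = 0.001), short of the threshold.

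**Figure D2:**
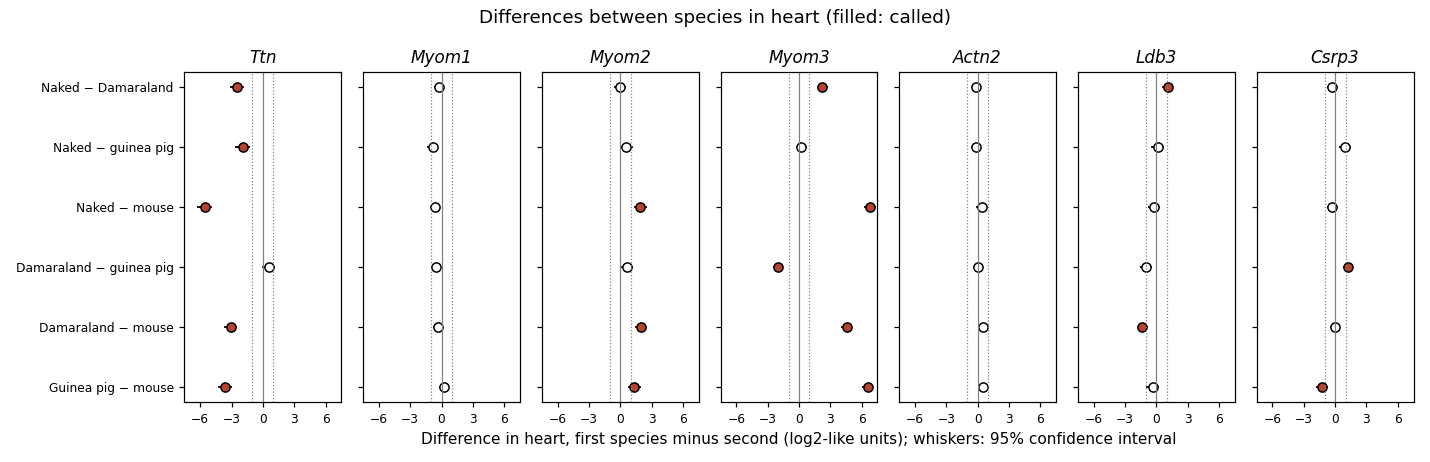
Difference between species in heart (x axis, log2-like units, first species minus second) for each of the 6 pairs, with 1 panel per gene. Filled points are called differences, whiskers are 95% confidence intervals and dotted lines mark differences of -1 and 1. Ttn and Myom3 are called in 5 of 6 pairs and lie on opposite sides of 0 in the 3 pairs with mouse, Myom1 and Actn2 in none.

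Counted by pair, the share of members called lay above the share of all genes in some pairs and below it in others. Between naked and Damaraland mole-rat, 3 of 7 members were called, beside 29.4% of all genes. Against guinea pig, naked mole-rat had 1 of 7 (33% of all genes), and Damaraland mole-rat 2 of 7 (29.7%). Against mouse, 3 of 7 were called in naked mole-rat (38.2% of all genes), 4 of 7 in the Damaraland animals (34.9%) and 4 of 7 in guinea pig (32.1%). With 7 genes, these counts do not set the members apart from the rest.

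The mean of the 2 mole-rats was then set against the mean of guinea pig and mouse. Here 3 of 7 members were called, beside 23.4% of all genes: Ttn lower (difference -2.52, SE 0.19, adjusted p = 6.32e-09 by limma), Myom2 higher (1.26, SE 0.17, adjusted p = 4.68e-06) and Myom3 higher (2.40, SE 0.14, adjusted p = 3.97e-10). The median difference was 0.20 over the members and -0.01 over all genes. Mouse stood farthest out for each of the 3. Damaraland titin overlapped guinea pig titin, and naked mole-rat Myom3 overlapped guinea pig Myom3. For Myom2 all 8 mole-rat hearts lay above all 6 outgroup hearts, which held for 1 of 7 members and for 15.2% of all genes. In heart 0 members were called in the same direction in both mole-rats against both outgroups, where 2.06% of all genes were called higher and 2.62% lower. Without the size threshold, 0 members had all 4 differences in the same direction at an adjusted p under 0.05 by limma, and 1 member, Myom2, at an unadjusted p under 0.05.

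Titin and its M-band partners were set beside other sarcomere genes, grouped in lists, in the same average. Over all 10667 genes tested, 1153 were called higher and 1340 lower in this average, or 23.4% in all. Of 15 tested titin and M-band partners, 4 were called higher and 2 lower (40%), with a median difference of 0.37. The highest were Capn3 (2.59), the muscle calpain that binds titin, Rbm20 (2.22), the splicing factor that shapes titin transcripts, and Ankrd2 (1.78), a stretch-responsive ankyrin repeat protein that binds titin's spring region. The called lower genes were Trim54 (-1.30), a muscle RING finger protein, and Fhl2 (-1.18), a LIM protein that binds titin. Fhl2 was low in naked mole-rat only, at 3466 mean scaled reads. It had 28149 in the Damaraland animals, 13921 in guinea pig and 26320 in mouse.

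Rbm20 is a partner whose product acts on titin's transcript itself. Its heart values were 14.12 ± 0.19 (SD, n = 3) in naked mole-rat, 12.43 ± 0.24 (SD, n = 5) in the Damaraland animals, 9.92 ± 0.20 (SD, n = 3) for guinea pigs, and 12.19 ± 0.18 (SD, n = 3) for mice. Naked mole-rat Rbm20 was above each other species: by 1.69 over Damaraland mole-rat (adjusted p = 2.95e-07 by limma), 4.21 over guinea pig (adjusted p = 2.19e-11) and 1.93 over mouse (adjusted p = 1.93e-07). Guinea pig had the lowest Rbm20, and mouse Rbm20 was not separated from Damaraland mole-rat (adjusted p = 0.226 by limma). Sums per gene cannot show titin's splice forms, and the part of Rbm20 in the titin differences was not tested.

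Capn3 was near the value of no reads in guinea pig, at 5.65 ± 0.33 (SD, n = 3), with 8.69 ± 0.30 (SD, n = 3) in naked mole-rat, 8.87 ± 0.27 (SD, n = 5) in the Damaraland animals and 6.74 ± 0.17 (SD, n = 3) in mouse. Both mole-rats were called above both outgroups, by 3.04 and 1.95 for naked mole-rat and 3.22 and 2.13 for Damaraland mole-rat, over guinea pig and mouse in that order (adjusted p of 6.15e-07 or less by limma in each). It is a gene of low read number in heart, with mean scaled reads of 341, 395, 3.07 and 41.1. Capn3 is known mainly from skeletal muscle, and the skeletal marker sums above were higher in both mole-rats than in the outgroups. Their part in the Capn3 difference was not tested.

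Of 23 tested other Z-disc genes, 5 were called higher and 2 lower (30.4%, beside 23.4% of all genes), with a median of -0.02. The largest were Myoz1 (2.48), a calcineurin-binding Z-disc protein of fast muscle, Neb (2.44) and Nexn (1.74), an actin-binding Z-disc protein. Capza1, the alpha subunit of the actin capping protein, was lower (-2.15), as was Synpo2 (-1.88), an actin-bundling protein of muscle. Synpo2 was low in naked mole-rat, at 164 mean scaled reads beside 4001, 2661 and 4229 in the Damaraland animals, guinea pig and mouse. Capza1 was instead low in both mole-rats, at 119 and 200 scaled reads beside 1255 in guinea pig and 701 in mouse.

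Among 15 thick and thin filament genes, 3 were called higher and 0 lower (20%, beside 23.4% of all genes), with a median of 0.55. The called genes were Myh7 (4.31), the slow cardiac myosin heavy chain, Tpm2 (1.77), a tropomyosin of slow muscle, and Myl2 (1.05), the ventricular regulatory light chain. Myh7 was lowest in mouse, like Myom3, with mean scaled reads of 625453 in naked mole-rat, 303692 in the Damaraland animals, 392030 in guinea pig and 1181 in mouse. Of the 5 tested relatives of alpha-actinin and muscle LIM protein, Csrp1 was called higher (1.65) and 0 lower (20% called), with a median of 0.21.

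**Figure D3:**
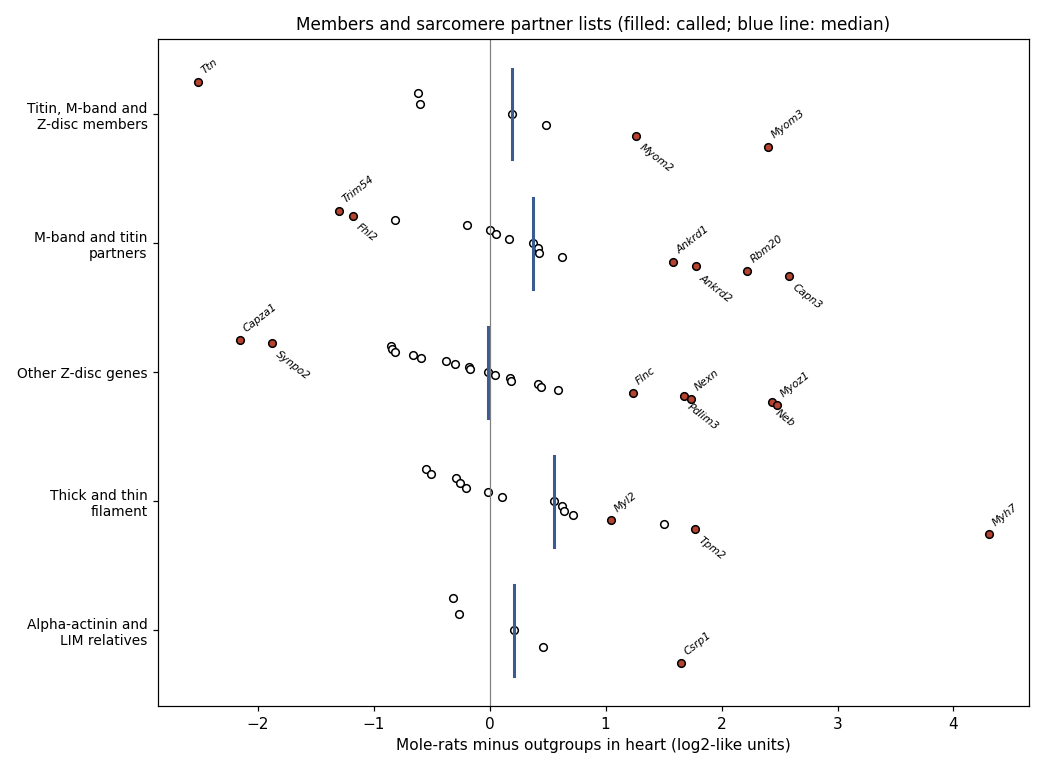
Difference of the mole-rat mean minus the outgroup mean in heart (x axis, log2-like units) for the 7 members and 4 lists of other sarcomere genes on the y axis. Each point is a gene, filled and named where called, and the blue line is the list's median. Ttn has the lowest difference of all genes plotted (-2.52), and Myh7 the highest (4.31).

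The members' profiles were compared over the 14 heart libraries, which fall into 4 species, so a high r mostly says that 2 genes order the species alike. Ttn ran opposite to Myom3 (Pearson r = -0.931) and Myom2 (r = -0.796), and Myom2 ran with Myom3 (r = 0.775). Myom1 had its largest r among members with Ttn (0.465), and Ldb3 its largest with Myom2, at -0.638. The genes most like Ttn over all genes tested were R3hcc1l (r = 0.981) and Ipmk (r = 0.98), and those most like Myom3 were Gm12248 (r = 0.992) and St8sia5 (r = 0.983). Myom2 was nearest to Erbb2 (r = 0.962) and to Tnni1, slow troponin I (r = 0.957). Ldb3 was nearest to Rbm24, a muscle splicing factor (r = 0.959), and Proser1 (r = 0.954), and Csrp3 to Myzap, an intercalated disc protein (r = 0.945), and Rab35 (r = 0.936). For Myom1 these were Hspbp1 (r = 0.93) and Top1 (r = 0.927), and for Actn2 Insr (r = 0.904) and Paox (r = 0.881). No member was among the nearest genes of another.

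Liver has no sarcomeres, and most members were found there at a trace of their heart level. As a share of library reads, the liver level of a member was 0.0567% to 0.493% of its heart level in 24 of 28 combinations of gene and species. The 10 cardiomyocyte markers lay at 0.0466% to 0.384%, except Tnnc1 in guinea pig at 9.69%, with medians of 0.140% in naked mole-rat, 0.202% in the Damaraland animals, 0.147% in guinea pig and 0.111% in mouse. The 2 tables were normalised separately, and these shares use the recovered reads of each. The exceptions were Myom1 in naked mole-rat, at 14.0% of its heart share, and in the Damaraland animals, at 1.14%, Csrp3 in mouse, at 2.76%, and Myom3 in mouse, at 14.4%, where both tissues held few reads.

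**Figure D4:**
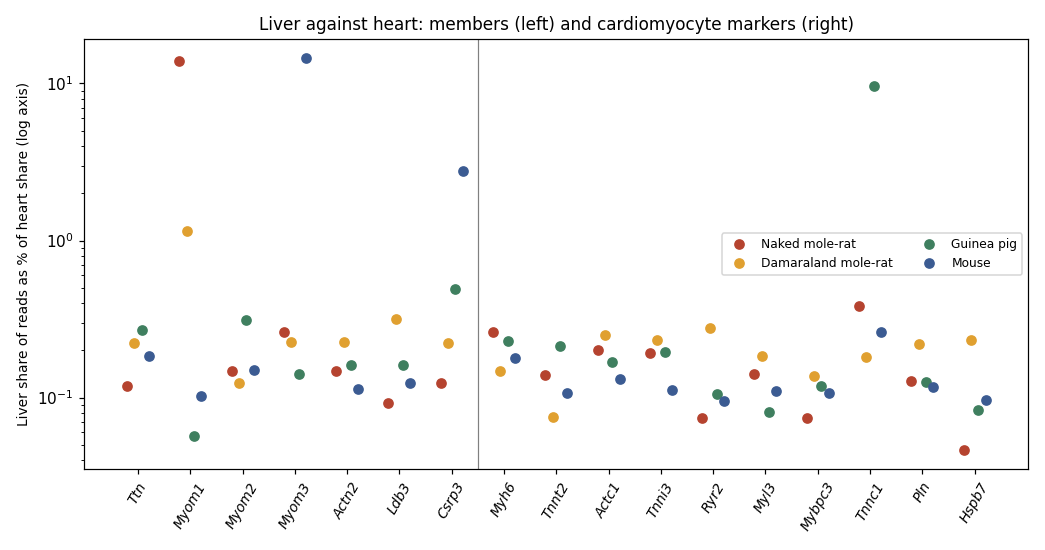
Mean share of reads in liver as a percent of the mean share in heart (y axis, log scale) for the 7 genes on the left and 10 cardiomyocyte markers on the right, with 1 point per species. Most points lie between 0.05% and 0.5%, with Myom1 in both mole-rats, Csrp3 and Myom3 in mouse and the marker Tnnc1 in guinea pig (9.69%) above.

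Myom1 was high in naked mole-rat liver. Its values were 10.85, 11.52, 12.78 and 11.48 in the naked mole-rat livers, 9.10, 9.11, 7.96, 7.62 and 8.50 in the Damaraland animals, 5.83, 5.79 and 5.99 in guinea pig, and 5.77 and 6.06 in mouse. The naked mole-rat livers lay above all others and the Damaraland livers above both outgroups, which overlapped. Mean scaled reads were 3624, 343, 26.0 and 27.9.

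Naked mole-rat Myom1 was 10.6-fold above Damaraland mole-rat (difference 3.20, SE 0.34, adjusted p = 2.24e-07 by limma), 139-fold above guinea pig (5.78, SE 0.38, adjusted p = 7.09e-10) and 130-fold above mouse (5.74, SE 0.43, adjusted p = 4.73e-09). Damaraland Myom1 was 13.2-fold above guinea pig (2.59, SE 0.37, adjusted p = 8.32e-06) and 12.3-fold above mouse (2.54, SE 0.42, adjusted p = 4.8e-05). It was the 1 member called higher in both mole-rats than in both outgroups, as were 3.42% of all genes in liver, and higher in naked mole-rat than in each other species, as were 5.83%. The 10 summed cardiomyocyte markers in liver ran from 1081 to 1842 scaled reads in naked mole-rat, 1780 to 3530 in the Damaraland animals, 4320 to 6084 in guinea pig and 1073 to 1557 in mouse. Without Tnnc1, which made up most of the mean sum in guinea pig, the other 9 ran from 987 to 1706, 1671 to 3314, 583 to 3123 and 1032 to 1480 in that order. The median for the 10 markers was 1529 in naked mole-rat and 2280 in the Damaraland animals. Myh6 took 1.52% of the heart reads in naked mole-rat and 7.14% in the Damaraland animals. The sums therefore do not measure how much heart RNA the livers of each species held. Myom2 in naked mole-rat liver was at 0.148% of its heart share. The part of heart RNA in the naked mole-rat Myom1 level was not tested.

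Among the Damaraland livers, replicates 1 and 2 were highest for Myom1 and Ttn, and also for the alpha myosin heavy chain marker Myh6, with 1876 and 1933 scaled reads beside 946 to 1178 in the other 3. The part of heart RNA in the Damaraland Myom1 level was not tested.

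Liver Csrp3 was high in mouse. Its values were 5.39, 5.72, 5.46 and 6.03 in naked mole-rat, 6.46, 6.51, 5.76, 6.19 and 6.08 in the Damaraland animals, 6.82, 5.51 and 6.01 in guinea pig, and 8.83 and 8.37 in mouse. Both mouse livers lay above all others, at a mean of 356 scaled reads beside 19.5, 40.9 and 41.2. The differences to mouse were -2.96 for naked mole-rat (SE 0.31, adjusted p = 2.54e-07 by limma), -2.40 for Damaraland mole-rat (SE 0.30, adjusted p = 2.05e-06) and -2.49 for guinea pig (SE 0.32, adjusted p = 4.72e-06). Csrp3 and Ttn were the 2 members called higher in mouse liver than in each other species, as were 6.33% of all genes.

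Titin in liver repeated the species order seen in heart. Its values were 5.92, 5.84, 6.01 and 5.94 in naked mole-rat, 8.83, 8.84, 7.97, 8.14 and 8.16 in the Damaraland animals, 8.81, 7.48 and 7.80 in guinea pig, and 10.94 and 9.94 in mouse. Naked mole-rat was again below all others, mouse above, and Damaraland mole-rat and guinea pig overlapped. Of all genes in liver, 4.45% were called lower in naked mole-rat than in each other species, with Ttn as the 1 member. Mean scaled reads were 28.1, 309, 246 and 1436. The difference was -2.46 between naked and Damaraland mole-rat (SE 0.26, adjusted p = 2.81e-07 by limma), and naked mole-rat was 51.1-fold below mouse (-4.51, SE 0.34, adjusted p = 4.55e-09). Liver titin was at 0.118% to 0.268% of its heart share, and 10 of the animals gave both tissues. The part of heart RNA in liver titin was not tested.

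**Figure D5:**
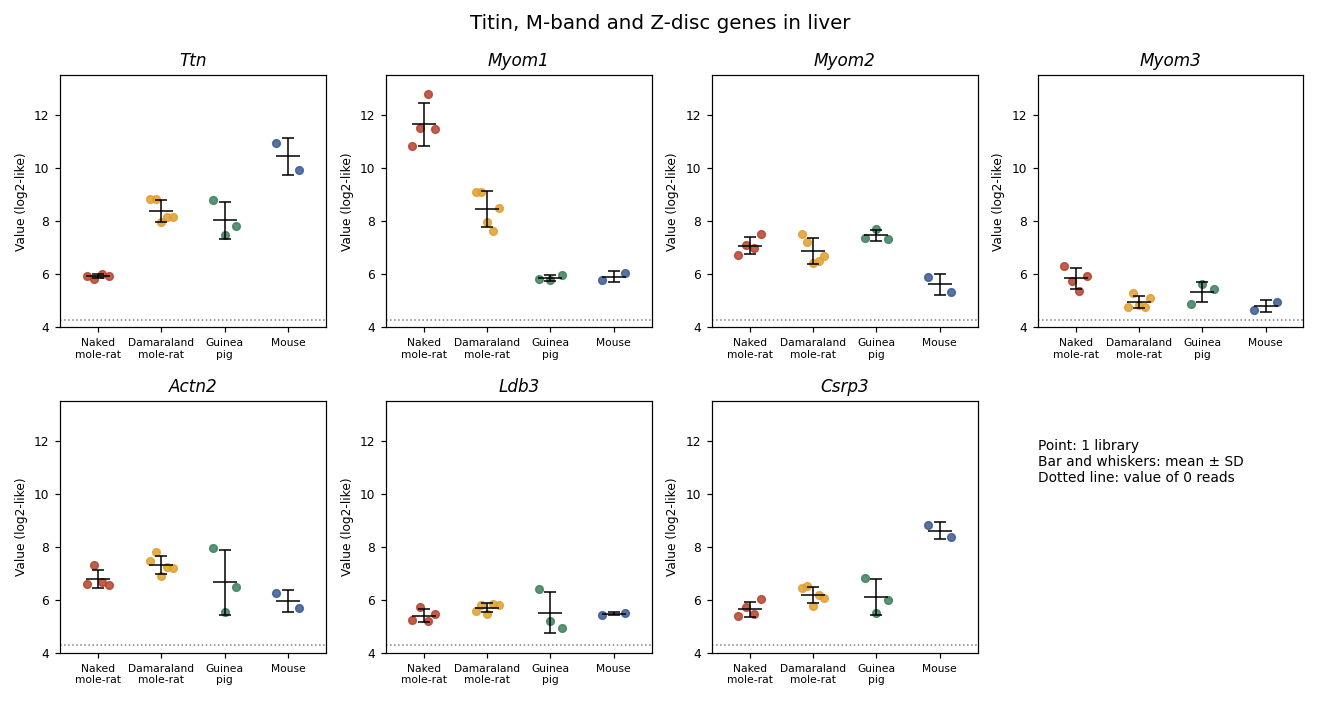
Values of the 7 genes in liver (y axis, log2-like units), by species on the x axis. Points are libraries, bars and whiskers are the mean and SD (n = 4, 5, 3 and 2), and the dotted line is the value of a gene with no reads (4.29). Myom1 is highest in naked mole-rat, Ttn and Csrp3 in mouse, and Ldb3 and Myom3 stay near the dotted line.

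The other members were low in liver. Myom2 was lowest in mouse, with 5.90 and 5.34, beside 6.74, 7.10, 6.98 and 7.51 in naked mole-rat, 7.52, 7.22, 6.43, 6.50 and 6.69 in the Damaraland animals, and 7.38, 7.70 and 7.32 in guinea pig. It exceeded mouse by 1.46 (SE 0.29, adjusted p = 0.000348 by limma), 1.25 (SE 0.28, adjusted p = 0.00101) and 1.84 (SE 0.31, adjusted p = 7.48e-05) in that order, and the Damaraland call was lost with quantile normalisation, at 0.89, and without mouse replicate 2, at 0.97. Both mouse livers were below all others for this gene, as in heart, and Myom2 was the 1 member called lower in mouse liver than in each other species, as were 5.83% of all genes. The guinea pig livers gave Actn2 values of 7.96, 5.54 and 6.49, and replicate 1 was also their highest for Ttn, Ldb3, Csrp3 and the marker Myh6, with 1771 scaled reads beside 252 and 794. Actn2 was called in 1 of 6 pairs, Damaraland mole-rat above mouse by 1.36 (SE 0.43, adjusted p = 0.0108), and without mouse replicate 2 this was 1.07 with an adjusted p of 0.132. Ldb3, at 4.07 to 50.4 scaled reads, was called in 0 of 6 pairs by limma, with 0 pairs at an unadjusted p under 0.05 and a smallest adjusted p of 0.283. Myom3, at no more than 45.7 scaled reads in any liver, fell below the filter on low values and was not tested.

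In liver 2 of 6 tested members were called between naked and Damaraland mole-rat (34.2% of all genes), 2 of 6 between naked mole-rat and guinea pig (37.8%) and 4 of 6 between naked mole-rat and mouse (41.2%). Between Damaraland mole-rat and guinea pig 1 of 6 was called (36.2%), 5 of 6 between Damaraland mole-rat and mouse (39.2%) and 3 of 6 between guinea pig and mouse (37.2%). In the mole-rat average set against guinea pig and mouse together, 3 of 6 were called, beside 28.1% of all genes: Myom1 higher (4.16, SE 0.28, adjusted p = 1.11e-09 by limma), and Ttn (-2.08, SE 0.22, adjusted p = 2.84e-07) and Csrp3 (-1.44, SE 0.20, adjusted p = 7.09e-06) lower. The median difference was 0.25 over the members and 0.02 over all genes. For Myom1 all 9 mole-rat livers lay above all 5 outgroup livers, which held for 1 of 6 members and for 16.1% of all genes.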

How the data were processed

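RNA-seq libraries of heart and liver were prepared from total RNA depleted of ribosomal RNA, per the labels' protocols. Each tissue has a table whose names call its values variance-stabilised, deposited by the authors on a log2-like scale. The authors' tools, per the submitters' processing notes, include cutadapt, Salmon 013.1 and DESeq2, with the build GRCm38 and no role or order given. The variance-stabilising curve was inverted for this report, and 100% of values came within 0.001 of a whole read. Values of 26 columns of other series in the tables were not used. Genes are mouse Ensembl IDs, paired with symbols by a name table for 13921 of 13928 rows.

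Genes with a mean of at least the value of no reads plus 1 (6.36 in heart, 5.29 in liver) entered a linear model in limma 3.58.1 (R 4.3.3), fitting 4 species in each tissue and shrinking variances along a trend, with Benjamini-Hochberg adjustment over all genes tested. The procedure was tested on simulated data. The labels name separate animals as replicates. Alternatives changed the size threshold, filter, scaling, variance model, sample weights, samples fitted, pairing and transform, and left out each library. Genes named are the members, the called partner genes with the 3 largest differences in each direction per list in heart, and the 2 genes most correlated with each member. Markers are named only where their values stand beside a member's. The members and lists were chosen with earlier results of these data known. No sequences were used.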

Additional observations from a re-analysis of the deposited data

Results flagged for a closer look

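Actn2 in naked mole-rat liver replicate 2 stood apart from its group, at 7.31 beside 6.57 to 6.66 in the other 3 livers. It was the 1 value apart among 21 groups of 4 or 5 libraries examined, and chance alone sets about 1 in 20 such groups apart.

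Myom1 differed between species in opposite directions in the 2 tissues, with no overlap of libraries in either. Naked mole-rat minus guinea pig was -0.85 in heart and 5.78 in liver. Naked mole-rat minus mouse was -0.63 in heart and 5.74 in liver, and Damaraland mole-rat minus guinea pig was -0.57 in heart and 2.59 in liver. The heart difference to mouse was only -0.28 with libraries centred on the cardiomyocyte markers (adjusted p = 0.212 by limma). The opposite directions were found in 3 of 42 pairs of species examined over the members, and the difference between tissues was not tested.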

How the results depend on the processing

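The 40 called differences kept their direction under every alternative run. They kept their call in 986 of the values obtained and lost it in 20. Part of that count was fixed in advance. Removing the size threshold could not end a call, and leaving out a library of a species outside a pair does not change that pair's difference. The calls of Ttn and Myom3 in heart, and of Ttn and Myom1 in liver, were kept under every alternative. Of 38 differences with an adjusted p of 0.05 or more, 17 changed sign under some alternative, so none of the 38 is read as a species difference. Where the text gives the order of libraries for such a pair, it describes those libraries only.

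Without a size threshold, the number of members called went from 1 to 3 in heart for naked mole-rat against guinea pig, from 2 to 5 for Damaraland mole-rat against guinea pig and from 3 to 6 for the mole-rat average, and from 1 to 2 in liver for Damaraland mole-rat against guinea pig. With a test against a difference of 1, it was 1 for Damaraland mole-rat against guinea pig and 2 for guinea pig against mouse in heart, and 3 for Damaraland mole-rat against mouse in liver. That test ended the heart calls of Ldb3, of Csrp3, and of Myom2 for guinea pig against mouse and for the average, and in liver those of Myom2 for both mole-rats against mouse, of Actn2, and of Csrp3 for the average. Quantile normalisation gave 4 for Damaraland mole-rat against guinea pig in heart. Testing genes above the table median, and so fewer members, gave 2, 2 and 1 in liver for naked mole-rat, Damaraland mole-rat and guinea pig against mouse. Leaving out each library gave 1 to 2 members in heart for naked mole-rat against guinea pig, 1 to 3 for Damaraland mole-rat against guinea pig, and in liver 1 to 2 for Damaraland mole-rat against guinea pig and 3 to 5 for Damaraland mole-rat against mouse. The lowest of these came without mouse replicate 2, where the lone mouse liver is assumed to vary like the other groups. Centring on the cardiomyocyte markers moved the median of all genes in heart to 0.34 for naked mole-rat, 0.25 for Damaraland mole-rat and 0.37 for guinea pig, each against mouse. A fit of only the 2 species of a pair could not give the average.

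Replicate numbers come from different species and mark no shared animal. With the replicate block the counts of members called were the same in every comparison, for example 4 in heart for guinea pig against mouse. Deviations of same-numbered libraries had a median correlation of -0.018 in heart (18 pairs) and 0.026 in liver (16 pairs).

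Groups of 2 to 5 animals limit the precision, and in liver Myom2, Myom3, Actn2, Ldb3 and Csrp3 rest on 1 to 405 reads per library. The large liver folds of Ttn and Myom1 also have a low side. Ttn had 18 to 39 reads per naked mole-rat liver, and Myom1 28 to 45 per guinea pig liver and 19 to 46 per mouse liver.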
